A study of Bos taurus with 12 samples.

Results

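Bovine intramuscular preadipocytes, the precursors of the fat cells that lie between muscle fibres, were compared at 3 d of adipogenic induction and before it (0 d). They had been isolated from longissimus dorsi of Qinchuan calves just born, and 6 of the study's 12 RNA libraries carry these day labels, 3 for each day. The 0 d cells had grown in medium with 15% serum and received no inducing agent. At 90% confluence, the 3 d cells were switched to the same medium with 3-isobutyl-1-methylxanthine (IBMX, 0.5 mM), dexamethasone and insulin (5 µg/mL by the sample labels) for 48 h, and then spent 1 day with insulin as the added hormone. The sources used here give doses of dexamethasone and of insulin that differ, and they do not give the number of animals behind the cultures. The study calls the 3 libraries of a day biological replicates. The SE and p-values below rest on the spread between libraries of the same day. For each gene this spread was pooled over all 12 libraries, those of 6 d and 9 d included, so it can differ from that of the 6 libraries shown.

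Levels are FPKM, fragment counts scaled to transcript length and to the fragments mapped in the library, and the depth behind a single value is unknown here. Of the 33714 entries of the mRNA table, the 15402 with a mean of at least 0.1 FPKM over the 12 libraries were tested with limma on log2(FPKM + 0.1). A gene was called when its absolute log2 fold change was over 1 and its adjusted p under 0.05. Log2 fold changes are given as 3 d minus 0 d ± SE, with n = 3 libraries for each day, and on this scale they understate the change of genes with low levels. Of the genes tested, 3585 (23.3%) were called, of which 1241 (8.06% of those tested) were higher and 2344 (15.2%) were lower at 3 d. For gene lists, the shares called are given beside these shares of all genes. Lists and their members were chosen with earlier results of these data known, so the shares describe the lists and test nothing. The median log2 fold change of all genes tested was -0.06. With a pseudocount of 1 in place of 0.1, 2184 genes were called. Values of 0 d and 3 d were without overlap in 59.3% of the genes tested and in 3521 of the genes called.

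Glucocorticoid targets rose, with 16 of 22 members of that list called higher (72.7%, beside 8.06% of all genes). Contractile genes fell (20 of 30, 66.7%), as did genes of the amino acid response (20 of 27, 74.1%). Targets of the YAP and TAZ coactivators, listed with CCN proteins and pathway genes such as YAP1 and TEAD4, fell (11 of 19, 57.9%). Glycoproteins of the matrix fell as well (14 of 26, 53.8%). Among all genes 15.2% were called lower. In the lists of the adipocyte program, 23.5% to 33.3% of members were called higher, beside 8.06% of all genes. The shares called lower ran from 4.0% to 28.6%, beside 15.2% of all genes. Of 35 mitotic genes limma called 0, beside 23.3% of all genes. The genes that fell held 27.3% of the summed FPKM at 0 d and 8.31% at 3 d. For the genes that rose, the share was 5.03% at 0 d and 17.5% at 3 d. FPKM are shares of a library, so that a gene's FPKM also depends on the other genes measured.

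**Figure D1:**
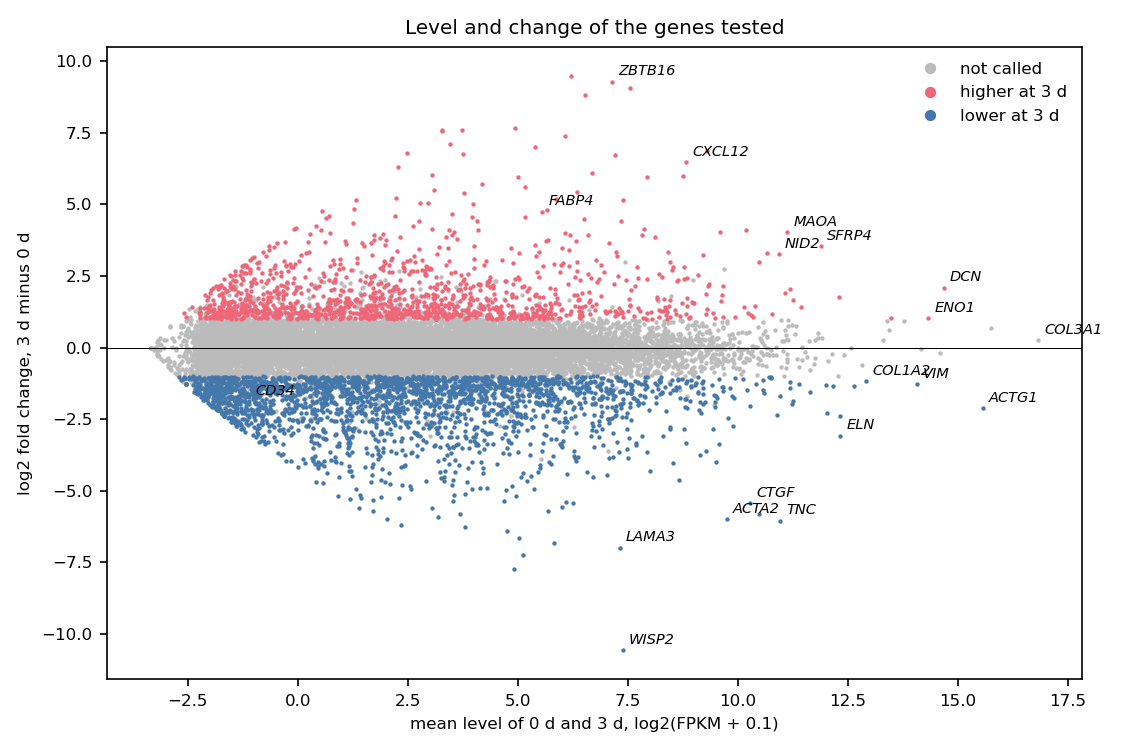
Mean level of the 0 d and 3 d libraries on the x axis (log2(FPKM + 0.1)) against the log2 fold change of 3 d minus 0 d on the y axis, 1 point for each of the 15402 genes tested. Red points are the 1241 genes called higher at 3 d, blue points the 2344 called lower and grey points the rest; DCN and ENO1 are high-level genes that rose, and ACTG1, VIM and COL1A2 are high-level genes that fell.

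Induction medium of this kind works through hormone and second messenger receptors. Dexamethasone is a ligand of the glucocorticoid receptor, a transcription factor that enters the nucleus and binds DNA once it holds its ligand. IBMX blocks phosphodiesterases, so that cyclic AMP rises, and insulin at a high dose acts on the insulin receptor and on the receptor for IGF1. In cultured preadipocytes the factors CEBPB and CEBPD are induced early and are followed by PPARG and CEBPA, which switch on the genes of fat storage.

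Markers were set against the cell label first. The 9 markers of preadipocytes or fibroblasts summed to 143126, 139784 and 149268 FPKM at 0 d and 176883, 183632 and 185214 FPKM at 3 d, with COL3A1, a fibrillar collagen, as the most abundant. COL3A1, named after its values were seen, was at 105377, 102820.3 and 109333 FPKM at 0 d and 123034, 126884 and 129901 FPKM at 3 d, and it was not called. The 3 d libraries lay above those of 0 d by less than the threshold of the call. Of these markers 4 rose and 4 fell (44.4% and 44.4%, beside 8.06% and 15.2%), and all 9 were tested. CD34, a surface marker of adipose progenitors, was at 0.64, 0.49 and 0.76 FPKM at 0 d and 0.080, 0.11 and 0.11 FPKM at 3 d, with a log2 fold change of -1.85 ± 0.21 and -0.56 with a pseudocount of 1. The gene was near 0 on both days, and it was not called with a pseudocount of 1. The 6 adipocyte markers summed to 26.1, 33.4 and 35.3 FPKM at 0 d and 137, 138 and 144 FPKM at 3 d. PLIN1, whose entry is joined with PEX11A, was the most abundant of them at 0 d and FABP4 at 3 d.

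Genes that define muscle cells were also present. The 9 muscle or myoblast markers tested summed to 840.4, 882 and 956 FPKM at 0 d and 272, 299.8 and 296 FPKM at 3 d, and 7 of them fell (77.8%, beside 15.2% of all genes). DES, the muscle intermediate filament desmin and the most abundant of them, was at 372, 388 and 419.9 FPKM at 0 d and 125, 144 and 145 FPKM at 3 d (-1.51 ± 0.073). MYOD1, a transcription factor that commits cells to muscle and named after its values were seen, was at 239.8, 260.2 and 303 FPKM at 0 d and 107, 113 and 108 FPKM at 3 d (-1.29 ± 0.20, limma adjusted p = 0.000312). CKM, the creatine kinase of muscle, was at 132, 136 and 130.3 FPKM at 0 d and 2.51, 5.05 and 2.28 FPKM at 3 d (-5.39 ± 0.30). In each of these 3 genes every 3 d library lay below every 0 d library, and MYOD1 and DES stayed above 100 FPKM. No entry of the mRNA values is named PAX7, the marker of muscle stem cells, so that gene was not analysed here. In bulk RNA, fewer cells of a type and less RNA per cell cannot be told apart, and the part of muscle cells in the results below was not tested.

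Of 5 pericyte or smooth muscle markers tested, 3 fell and 1 rose (60% and 20%, beside 15.2% and 8.06%). Their sum was 463, 461 and 481 FPKM at 0 d and 104, 109 and 101 FPKM at 3 d, with CSPG4 and the smooth muscle actin ACTG2 as the most abundant genes at 0 d. RGS5, a defining marker of pericytes, was listed at 0 in all 6 libraries. The smooth muscle myosin MYH11, the most abundant at 3 d and named after its values were seen, was at 23.7, 26.3 and 19.8 FPKM at 0 d and 60.6, 59.7 and 51.2 FPKM at 3 d and was not called (1.298 ± 0.64, limma adjusted p = 0.118). Its 3 d libraries all lay above those of 0 d, and it was called in a fit of the 6 libraries of 0 d and 3 d alone (1.298). CSPG4, the proteoglycan NG2 of pericytes, was at 199.6, 193 and 211 FPKM at 0 d and 10.2, 8.68 and 7.29 FPKM at 3 d (-4.52 ± 0.11). MCAM, an adhesion molecule of vessel walls, was at 4.31, 4.08 and 2.36 FPKM at 0 d and 14.6, 18.1 and 19.9 FPKM at 3 d (2.29 ± 0.24). CSPG4 was high in the 0 d libraries and MCAM in those of 3 d, without overlap. Tendon or cartilage markers summed to 43.1, 49.1 and 46.2 FPKM at 0 d and 7.38, 5.05 and 6.5 FPKM at 3 d, and 2 of 4 tested fell (50.0%, beside 15.2% of all genes), or 3 with no filter. They were MKX, a tendon transcription factor and the most abundant of them, and ACAN, the core protein of a cartilage proteoglycan. MKX was at 34.0, 36.8 and 36.1 FPKM at 0 d and 4.51, 2.02 and 4.07 FPKM at 3 d (-3.38 ± 0.26). ACAN was at 6.01, 8.72 and 6.31 FPKM at 0 d and 0.37, 0.41 and 0 FPKM at 3 d (-4.61 ± 0.52 and -2.67 with a pseudocount of 1). SCX, a transcription factor that defines tendon, was at 0.54, 0.56 and 0.76 FPKM at 0 d and 1.08, 1.28 and 1.15 FPKM at 3 d and was not called.

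Endothelial markers summed to 3.0, 3.5 and 2.83 FPKM at 0 d and 3.51, 3.34 and 3.04 FPKM at 3 d, with VWF as the most abundant gene. Limma called 0 of the 2 tested, beside 23.3% of all genes, of which 2 had an unadjusted p under 0.05, and the other 4 were at no more than 0.12 FPKM. TEK, a receptor of angiopoietins and named after its values were seen, was at 0.65, 0.92 and 0.75 FPKM at 0 d and 1.64, 1.48 and 1.46 FPKM at 3 d (0.91 ± 0.15 and 0.51 with a pseudocount of 1), which limma did not call. Its 3 d libraries lay above those of 0 d, and it was called without the second 0 d library (1.02). Immune markers summed to 2.07, 1.16 and 1.1 FPKM at 0 d and 5.03, 5.86 and 5.72 FPKM at 3 d, and 3 of 4 tested rose (75.0%, beside 8.06% of all genes). Without the third 0 d library or with a pseudocount of 1, 2 were called. PTPRC, the leukocyte antigen CD45, was listed at 0 in all 6 libraries. CD14, a receptor of monocytes and the most abundant of the immune markers, was at 0.78, 0.48 and 0.76 FPKM at 0 d and 2.02, 2.66 and 2.52 FPKM at 3 d (1.71 ± 0.19 and 1.02 with a pseudocount of 1). CD79A, a B cell receptor subunit, was at 0.73, 0 and 0 FPKM at 0 d and 1.67, 2.17 and 2.05 FPKM at 3 d (3.34 ± 0.86 and 1.3 with a pseudocount of 1 or 5.55 with 0.01). Both were low, and their 3 d libraries lay above those of 0 d. CD163, the scavenger receptor for haemoglobin and haptoglobin, a marker of macrophages and no member of that list, was at 0.59, 0.79 and 0.57 FPKM at 0 d and 204, 114 and 85.2 FPKM at 3 d (7.40 ± 0.36). It was low in the 0 d libraries and among the largest rises of all genes, with the 3 d libraries spread widely. The nerve sheath marker tested was S100B, a calcium-binding protein, at 4.92, 3.99 and 4.2 FPKM at 0 d and 11.2, 11.7 and 10.2 FPKM at 3 d (1.32 ± 0.090). The other 3 nerve sheath markers were below the filter at no more than 0.050 FPKM. Epithelial markers summed to 8.05, 8.25 and 9.21 FPKM at 0 d and 4.43, 4.93 and 4.98 FPKM at 3 d, all of it the cadherin CDH1, since EPCAM, KRT8 and KRT18 were listed at 0. Limma called 0 of the 1 tested, beside 23.3% of all genes, at an unadjusted p under 0.05 in 1. Erythroid markers summed to at most 0.080 FPKM in a library, and none passed the filter. The part of these cell types in the results was not tested.

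Glucocorticoid receptor targets were the list with the highest median log2 fold change among the signalling and function lists (2.46). The 16 members called higher and 2 called lower made up 81.8% of those tested, beside 23.3% of all genes, and with a pseudocount of 1 they were 14 higher and 1 lower. FKBP5, a cochaperone that binds the receptor and is induced by it, was at 0.50, 0.48 and 0.29 FPKM at 0 d and 114, 22.7 and 113 FPKM at 3 d, a log2 fold change of 7.02 ± 0.76 (limma adjusted p = 2.66e-05). The second 3 d library was far below the other two, yet above every 0 d library. ZBTB16, a zinc finger transcriptional repressor, was at 0.53, 0.25 and 0.25 FPKM at 0 d and 355, 330.0 and 162 FPKM at 3 d (9.29 ± 0.34, limma adjusted p = 8.7e-09). It was nearly silent in the 0 d libraries and rose in each of the 3 d libraries. MAOA, a monoamine oxidase of the outer mitochondrial membrane and the most abundant gene of the list at 3 d, was at 282, 265 and 231 FPKM at 0 d and 4072, 4318 and 4260.0 FPKM at 3 d (4.03 ± 0.065). PDK4, the kinase that shuts off pyruvate dehydrogenase, was at 0.82, 1.22 and 0.78 FPKM at 0 d and 63.9, 61.0 and 63.8 FPKM at 3 d (5.95 ± 0.16). MT2A, a metal-binding metallothionein whose near-identical copies make its level uncertain, was at 2.48, 2.73 and 3.95 FPKM at 0 d and 109.7, 114 and 119 FPKM at 3 d (5.21 ± 0.15). In these 3 genes the replicates of a day lay close together and the days far apart. KLF9, a transcription factor whose entry is joined with an unnamed locus, was at 96.6, 87.3 and 89.8 FPKM at 0 d and 636, 649 and 658 FPKM at 3 d (2.83 ± 0.056). CDKN1C, the cell cycle inhibitor p57, went the other way, from 37.5, 33.1 and 40.7 FPKM at 0 d to 13.1, 14.7 and 15.5 FPKM at 3 d (-1.35 ± 0.11). It was lower in every 3 d library than in any 0 d library.

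Phosphodiesterases, the enzymes that IBMX blocks, had 3 of 15 tested members called higher and 2 lower (20% and 13.3%, beside 8.06% and 15.2%), with a median log2 fold change of -0.01 (-0.13 without the first 3 d library and 0.079 without the third 3 d library). PDE7B, which is specific for cyclic AMP, was at 9.08, 10.1 and 8.05 FPKM at 0 d and 342, 309 and 323 FPKM at 3 d (5.15 ± 0.10, limma adjusted p = 1.66e-10). PDE4D, another enzyme specific for cyclic AMP, was at 82.8, 68.5 and 53.1 FPKM at 0 d and 119, 717 and 725 FPKM at 3 d (2.56 ± 0.65, limma adjusted p = 0.00736). The first 3 d library of PDE4D was closer to the 0 d libraries than to the other 3 d libraries, while PDE7B was even within each day. PDE2A, an enzyme stimulated by cyclic GMP, was at 6.48, 5.92 and 6.85 FPKM at 0 d and 1.55, 1.42 and 1.41 FPKM at 3 d (-2.06 ± 0.21). PDE3A was at 12.6, 12.5 and 10.8 FPKM at 0 d and 3.63, 3.7 and 4.12 FPKM at 3 d (-1.62 ± 0.085). Both were lower in every 3 d library.

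Of 25 cAMP-responsive and immediate-early regulators, 2 rose and 4 fell (8.0% and 16%, beside 8.06% and 15.2%), and 1 higher and 3 lower were called with a pseudocount of 1. CREM, a modulator of cAMP response elements, was at 0.72, 0.93 and 0.55 FPKM at 0 d and 0.95, 2.22 and 0.73 FPKM at 3 d, the groups overlapped and it was not called. SIK1, a kinase induced by cAMP, was at 55.0, 57.3 and 74.2 FPKM at 0 d and 129.6, 142 and 143 FPKM at 3 d (1.16 ± 0.13). RGS2, a regulator of G protein signalling, was at 0, 0.040 and 0.020 FPKM at 0 d and 0.47, 0.47 and 0.47 FPKM at 3 d (2.26 ± 0.16 and 0.53 with a pseudocount of 1 or 4.28 with 0.01), and RGS2 was not called with a pseudocount of 1. SIK1 and RGS2 were higher at 3 d without overlap, RGS2 at a level under 1 FPKM. FOSL1, a Fos family member of the AP-1 factor, was at 34.2, 41.8 and 33.2 FPKM at 0 d and 4.56, 4.24 and 4.56 FPKM at 3 d (-3.00 ± 0.17). IER3, an immediate-early gene tied to cell survival, was at 59.2, 51.0 and 56.6 FPKM at 0 d and 10.4, 11.0 and 11.8 FPKM at 3 d (-2.32 ± 0.083). Both fell in each of the 3 d libraries.

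In the list of insulin receptor, signalling proteins and FOXO-type targets, 8 of 28 members rose and 3 fell (28.6% and 10.7%, beside 8.06% and 15.2%), with a median log2 fold change of 0.00 (-0.082 without the third 0 d library and 0.084 after rescaling by the median ratio). The calls were 7 higher and 1 lower with a pseudocount of 1, and without the third 0 d library 7 higher and 5 lower. INSR, the insulin receptor, was at 33.8, 35.8 and 28.1 FPKM at 0 d and 33.2, 42.6 and 40.5 FPKM at 3 d, with overlap between the days and no call. SESN3, a sestrin and a FOXO target, was at 54.4, 52.9 and 47.4 FPKM at 0 d and 391, 359 and 352 FPKM at 3 d (2.83 ± 0.066). SESN2, a sestrin induced by stress, was at 7.83, 9.25 and 6.47 FPKM at 0 d and 1.53, 1.67 and 1.74 FPKM at 3 d (-2.17 ± 0.20). The paralogs thus moved in opposite directions. IRS2, PIK3R1, FOXO1, FOXO4, SESN1 and KLF15 were also called higher, and IRS1 and FOXO6 lower, but not with a pseudocount of 1.

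The IGF system had 6 of 15 members higher and 3 lower (40.0% and 20%, beside 8.06% and 15.2%). The members called lower were 2 in every alternative but the fit without the first 3 d library, and with a pseudocount of 1 or a minimum mean of 1 FPKM the calls were 5 higher and 2 lower. IGF1, the growth factor that acts on the IGF1 receptor, was at 19.5, 16.2 and 10.3 FPKM at 0 d and 106, 111 and 117 FPKM at 3 d (2.90 ± 0.52, limma adjusted p = 0.000941). The 0 d libraries were spread more widely in proportion than those of 3 d, and the days did not overlap. IGFBP3, the main carrier of IGF in blood, was at 134, 123 and 137 FPKM at 0 d and 416, 447 and 479.6 FPKM at 3 d (1.77 ± 0.071). STC1, a stanniocalcin that blocks the protease PAPPA, was at 0.66, 0.57 and 0.60 FPKM at 0 d and 387, 345 and 398 FPKM at 3 d (9.05 ± 0.37). IGFBP6, which binds IGF2 by preference, was at 65.3, 53.3 and 58.9 FPKM at 0 d and 4.27, 5.02 and 4.57 FPKM at 3 d (-3.65 ± 0.089). IGFBP3 and STC1 were high in the 3 d libraries and IGFBP6 in the 0 d libraries. STC2, the paralog of STC1, was at 2.33, 2.44 and 2.81 FPKM at 0 d and 0.050, 0.080 and 0.020 FPKM at 3 d (-4.15 ± 0.19 and -1.75 with a pseudocount of 1). IGFALS, the subunit that stabilises IGF complexes and no member of that list, was at 55.6, 58.9 and 63.2 FPKM at 0 d and 2.11, 0 and 0 FPKM at 3 d (-7.72 ± 0.96). It was listed at 0 in 2 of the 3 d libraries.

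**Figure D2:**
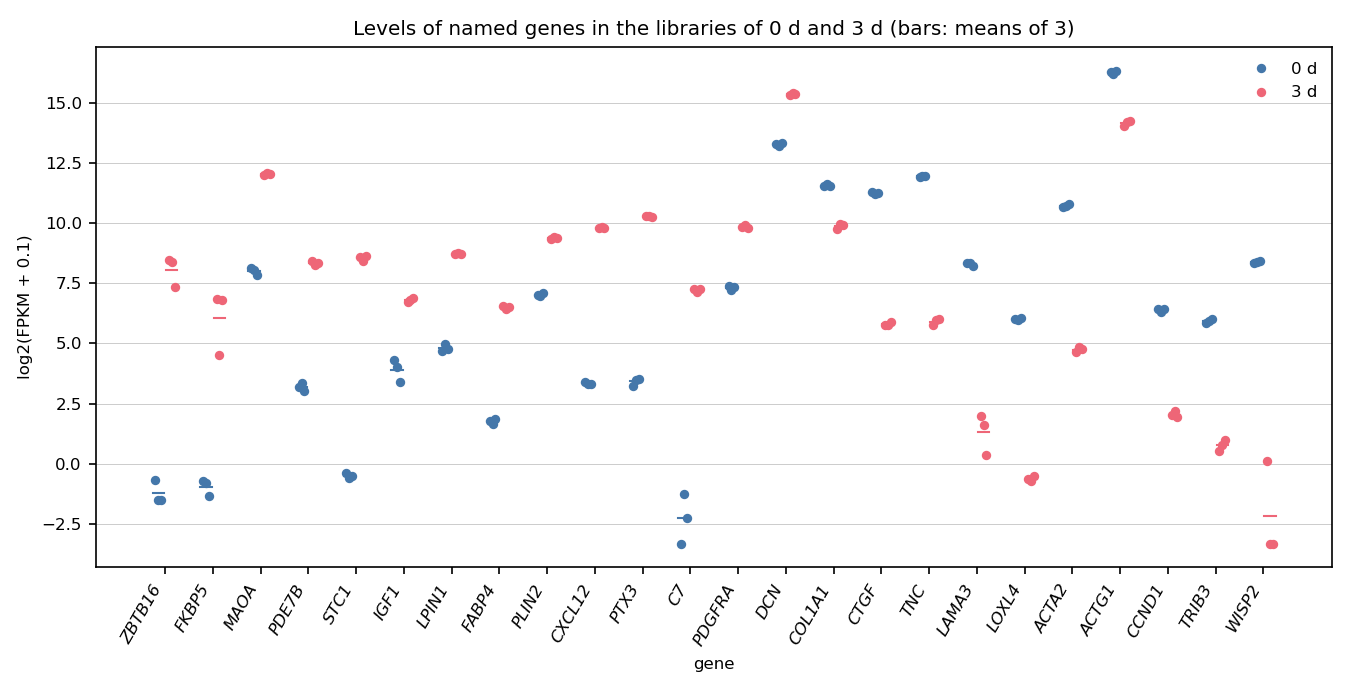
Levels of 24 named genes on the y axis (log2(FPKM + 0.1)) in each library of 0 d (blue) and 3 d (red), with bars at the means of 3 libraries; a gene listed at 0 FPKM lies at the lowest position. The days do not overlap in any of the 24 genes, nor in 59.3% of all genes tested. Apart from first members of lists, the genes drawn were eligible only without overlap. FKBP5 has 1 low library at 3 d, and WISP2 is listed at 0 in 2 of the 3 d libraries.

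Among 20 transcription factors of adipogenesis, 5 rose and 5 fell (25.0% and 25.0%, beside 8.06% and 15.2%), with a median log2 fold change of 0.22 (-0.17 with no filter and 0.49 with a minimum mean of 1 FPKM). With a pseudocount of 1 or a minimum mean of 1 FPKM, 5 higher and 3 lower were called. CEBPD, the early factor that glucocorticoids induce, was at 1055, 1044 and 1189 FPKM at 0 d and 2435, 2447 and 2439 FPKM at 3 d (1.16 ± 0.072). KLF6, a zinc finger factor, was at 28.0, 27.2 and 25.6 FPKM at 0 d and 6.71, 7.65 and 7.83 FPKM at 3 d (-1.85 ± 0.072). PRDM16, a factor of brown fat, was at 2.6, 2.28 and 2.03 FPKM at 0 d and 0.53, 0.69 and 0.44 FPKM at 3 d (-1.89 ± 0.15 and -1.09 with a pseudocount of 1). CEBPD was high at 3 d, and KLF6 and PRDM16 were high at 0 d. KLF9, described above, was the member with the largest rise, and KLF15, EBF1 and EBF2 rose as well. KLF4, MLXIPL and EGR2 were the other members that fell, though MLXIPL and EGR2 were not called with a pseudocount of 1. CEBPA was at 0.080, 0.080 and 0.12 FPKM at 0 d and 0.18, 0.22 and 0.26 FPKM at 3 d (0.73 ± 0.14 and 0.16 with a pseudocount of 1). CEBPB was at 262, 261 and 309.6 FPKM at 0 d and 447, 652 and 552 FPKM at 3 d (0.97 ± 0.12). CEBPA was near 0 and CEBPB high on both days, and neither was called, although their 3 d libraries lay above those of 0 d. CEBPA was called with a pseudocount of 0.01 (1.16). CEBPB, named after its values were seen, was called after either rescaling (1.05 and 1.04), without the third 0 d library (1.05) and without the first 3 d library (1.12). PPARG is not reported here.

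Of 12 lipid droplet genes, 4 rose and 3 fell (33.3% and 25.0%, beside 8.06% and 15.2%), and 2 higher and 3 lower were called with a minimum mean of 1 FPKM. PLIN2, a coat protein of droplets in many cell types, was at 129.9, 125 and 135 FPKM at 0 d and 648, 680.0 and 676 FPKM at 3 d (2.36 ± 0.060, limma adjusted p = 7.25e-10). G0S2, an inhibitor of the triglyceride lipase, was at 0.050, 0.11 and 0 FPKM at 0 d and 1.86, 2.39 and 2.31 FPKM at 3 d (3.96 ± 0.27 and 1.59 with a pseudocount of 1). BSCL2, the seipin of droplet formation, whose entry is joined with LRRN4CL, was at 81.4, 75.5 and 88.9 FPKM at 0 d and 26.2, 27.7 and 26.9 FPKM at 3 d (-1.60 ± 0.066). PLIN2 and G0S2 were high in the 3 d libraries and the BSCL2 entry in the 0 d libraries. In fatty acid uptake, binding and activation, 5 of 18 members rose and 3 fell (27.8% and 16.7%, beside 8.06% and 15.2%). FABP4, the fatty acid binding protein of adipocytes, was at 3.36, 3.02 and 3.52 FPKM at 0 d and 94.7, 86.2 and 92.3 FPKM at 3 d (4.75 ± 0.12). CAV1, the coat protein of caveolae, was at 47.7, 42.3 and 44.7 FPKM at 0 d and 99.8, 98.8 and 103 FPKM at 3 d (1.16 ± 0.064). VLDLR, a lipoprotein receptor, was at 284, 277 and 269 FPKM at 0 d and 29.3, 27.7 and 28.2 FPKM at 3 d (-3.28 ± 0.046, limma adjusted p = 3.4e-11). FABP4 and CAV1 rose, as did CD36, LPL and FABP5, while VLDLR fell in each of the 3 d libraries.

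Triglyceride synthesis had 4 of 17 members higher and 2 lower (23.5% and 11.8%, beside 8.06% and 15.2%), or 3 higher and 1 lower with a pseudocount of 1. DGAT2, which adds the last fatty acid to a triglyceride, was at 0.040, 0 and 0.18 FPKM at 0 d and 20.3, 22.1 and 23.1 FPKM at 3 d (7.12 ± 0.31 and 4.41 with a pseudocount of 1). LPIN1, the phosphatidate phosphatase lipin, was at 25.6, 31.2 and 26.9 FPKM at 0 d and 416, 437 and 418 FPKM at 3 d (3.92 ± 0.10, limma adjusted p = 8.28e-10). GPAM, which starts the pathway in mitochondria, was at 2.55, 1.91 and 1.2 FPKM at 0 d and 12.8, 14.2 and 13.0 FPKM at 3 d (2.82 ± 0.36). All 3 were higher in the 3 d libraries, DGAT2 from a level close to 0. AGPAT4, an acyltransferase of lysophosphatidic acid, was at 13.7, 14.8 and 12.4 FPKM at 0 d and 6.17, 6.04 and 6.01 FPKM at 3 d (-1.15 ± 0.10). In fatty acid synthesis, elongation and desaturation, 5 of 20 members rose and 2 fell (25.0% and 10.0%, beside 8.06% and 15.2%), and the median log2 fold change was -0.02 (-0.33 with a minimum mean of 1 FPKM and 0.059 after rescaling by the median ratio). With a pseudocount of 1 or a minimum mean of 1 FPKM the calls were 3 higher and 2 lower. FASN, the fatty acid synthase, was at 1468, 1527 and 1587 FPKM at 0 d and 2672, 3219 and 3020.0 FPKM at 3 d and was not called at 0.96 ± 0.083. It was called after either rescaling of the libraries, by their median ratio or to equal sums (1.04 and 1.03) and without the first 3 d library (1.03). ACACB, the acetyl-CoA carboxylase of mitochondria, was at 0.88, 1.48 and 0.95 FPKM at 0 d and 17.9, 22.1 and 20.8 FPKM at 3 d (4.11 ± 0.17). SCD, the stearoyl-CoA desaturase, was at 28.3, 30.1 and 22.9 FPKM at 0 d and 279.8, 246 and 299 FPKM at 3 d (3.34 ± 0.13). ELOVL7, an elongase of saturated fatty acids, was at 119, 109 and 115 FPKM at 0 d and 16.8, 21.2 and 25.0 FPKM at 3 d (-2.46 ± 0.12). ACACB and SCD were high at 3 d and ELOVL7 at 0 d, with no overlap.

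Among 21 lipases and their regulators, 7 rose and 3 fell (33.3% and 14.3%, beside 8.06% and 15.2%), and 1 higher and 1 lower were called with a pseudocount of 1, or 3 higher and 2 lower with a minimum mean of 1 FPKM. PNPLA2, the adipose triglyceride lipase, was at 1.55, 1.7 and 1.79 FPKM at 0 d and 3.3, 4.45 and 3.32 FPKM at 3 d (1.08 ± 0.13). Its call was lost with a pseudocount of 1 (0.80) and without the second 3 d library (0.94). MGLL, the monoacylglycerol lipase, was at 213, 207 and 99.1 FPKM at 0 d and 37.5, 41.4 and 47.9 FPKM at 3 d (-1.96 ± 0.35, limma adjusted p = 0.000918). It was lower in every 3 d library, and the third 0 d library of MGLL stood below the other 0 d libraries. ADCY5, an adenylyl cyclase, was at 0.010, 0.030 and 0.020 FPKM at 0 d and 0.94, 0.95 and 1.09 FPKM at 3 d (3.19 ± 0.15 and 0.97 with a pseudocount of 1 or 5.12 with 0.01), and was not called with a pseudocount of 1. LIPE, PNPLA3, ADRB1 and AQP3 rose as well, of which LIPE alone was called with a pseudocount of 1. In fatty acid oxidation 6 of 25 members rose and 1 fell. The share called higher was 24%, beside 8.06% of all genes, and the share called lower 4.0%, beside 15.2%. CPT1A, which loads fatty acids onto carnitine, was at 1332, 1323 and 1395 FPKM at 0 d and 1331, 1409.5 and 1413 FPKM at 3 d, with overlap and no call. CPT2, its partner on the inner membrane, was at 94.1, 109 and 94.3 FPKM at 0 d and 246, 227 and 215 FPKM at 3 d (1.21 ± 0.073). CPT1B, the muscle form, whose entry is joined with CHKB, was at 246, 207 and 264 FPKM at 0 d and 107, 122 and 91.5 FPKM at 3 d (-1.16 ± 0.12). CPT2 was higher and the CPT1B entry lower in every 3 d library.

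Of 14 adipokines and other secreted adipocyte factors, 4 rose and 4 fell (28.6% and 28.6%, beside 8.06% and 15.2%), and 3 higher and 2 lower were called with a pseudocount of 1. ADIPOQ, the adipocyte hormone adiponectin, was at 0.010, 0.030 and 0.030 FPKM at 0 d and 0.40, 0.86 and 0.91 FPKM at 3 d (2.68 ± 0.66 and 0.74 with a pseudocount of 1 or 4.44 with 0.01, limma adjusted p = 0.00655). It stayed under 1 FPKM in all 6 libraries and was not called with a pseudocount of 1. LEP, the adipocyte hormone leptin, was at 2.17, 2.39 and 2.47 FPKM at 0 d and 0, 0.21 and 0 FPKM at 3 d (-4.07 ± 0.41 and -1.65 with a pseudocount of 1; -6.39 with a pseudocount of 0.01). C1QTNF1, a relative of adiponectin, was at 275, 206 and 187 FPKM at 0 d and 669.7, 1257 and 1291 FPKM at 3 d (2.23 ± 0.46). C1QTNF3, of the same family, was at 4.76, 4.5 and 4.46 FPKM at 0 d and 0.54, 0.79 and 0.80 FPKM at 3 d (-2.54 ± 0.12). LEP and C1QTNF3 were high at 0 d, and C1QTNF1 was high at 3 d, with 1 library of that day below the other two. SFRP5, an adipokine that binds Wnt ligands, was at 0.020, 0.080 and 0.020 FPKM at 0 d and 4.24, 5.16 and 5.04 FPKM at 3 d (5.16 ± 0.21 and 2.48 with a pseudocount of 1). The adipocyte marker list held 3 genes called higher and 1 called lower of 6 (50.0% and 16.7%, beside 8.06% and 15.2%), and 1 higher and 1 lower were called with a pseudocount of 1 as with a minimum mean of 1 FPKM.

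Of 24 progenitor genes 12 fell (50.0%, beside 15.2% of all genes) and 3 rose (12.5%, beside 8.06%), with a median log2 fold change of -0.98 (-0.46 with a pseudocount of 1). The calls were 3 higher and 8 lower with a pseudocount of 1. PDGFRA, the platelet-derived growth factor receptor that marks adipose progenitors, was at 168, 148 and 163 FPKM at 0 d and 925, 963 and 900.4 FPKM at 3 d (2.54 ± 0.055, limma adjusted p = 2.51e-10). PDGFRB, its paralog, was at 594, 594 and 571 FPKM at 0 d and 215, 238 and 223 FPKM at 3 d (-1.38 ± 0.055). The alpha receptor was the more abundant at 3 d and the beta receptor at 0 d. WISP2, a CCN protein that keeps precursors from differentiating, was at 325, 334 and 345 FPKM at 0 d and 0.97, 0 and 0 FPKM at 3 d (-10.57 ± 0.73, limma adjusted p = 9.57e-07). The gene was even across the 0 d libraries and was listed at 0 in 2 of the 3 d libraries. THY1 and NT5E rose with PDGFRA, and CD248, ENG, MME, ITGB1, GATA6, KLF2, NGFR and NES fell with CD34. GATA6 and NGFR were not called with a pseudocount of 1.

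Of 32 Wnt ligands, receptors and inhibitors, 7 rose and 13 fell (21.9% and 40.6%, beside 8.06% and 15.2%), with a median log2 fold change of -0.65 (-0.36 with a pseudocount of 1 and 0.19 with a minimum mean of 1 FPKM). With a pseudocount of 1, as with a minimum mean of 1 FPKM, the calls were 7 higher and 4 lower, so that the balance turned. WNT5A, a ligand of the noncanonical pathway, was at 42.8, 57.1 and 42.4 FPKM at 0 d and 24.6, 32.5 and 32.8 FPKM at 3 d and was not called. FZD6, a Wnt receptor, was at 3.96, 4.51 and 3.96 FPKM at 0 d and 0.31, 0.38 and 0.47 FPKM at 3 d (-3.13 ± 0.13 and -1.89 with a pseudocount of 1). The FZD6 libraries of 3 d were all under 1 FPKM. Among the secreted inhibitors, SFRP4 was at 574, 592 and 647 FPKM at 0 d and 6517, 7225 and 7267 FPKM at 3 d (3.54 ± 0.062, limma adjusted p = 8.15e-11). DKK1 was listed at 0 in all 0 d libraries and was at 10.1, 10.9 and 11.8 FPKM at 3 d (limma adjusted p = 6.53e-10). DKK3 was at 90.7, 28.2 and 93.8 FPKM at 0 d and 7.63, 12.1 and 18.3 FPKM at 3 d (-2.37 ± 0.43). SFRP4 and DKK1 were thus high at 3 d, and DKK3 at 0 d with 1 lower library. The ligands WNT2, WNT2B, WNT5B and WNT10B fell, though none of them was called with a pseudocount of 1, and no ligand of the list was called higher.

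Genes of TGF-beta signalling were called lower in 10 and higher in 1 of 28 cases (35.7% and 3.57%, beside 15.2% and 8.06%), and without the second 3 d library the calls were 3 higher and 10 lower. TGFB1, the ligand, was at 8.1, 7.39 and 7.39 FPKM at 0 d and 5.03, 5.43 and 4.69 FPKM at 3 d and was not called (-0.59 ± 0.094). TGFBR3, the coreceptor betaglycan, was at 192, 193 and 173 FPKM at 0 d and 490.4, 602 and 448 FPKM at 3 d (1.46 ± 0.18). LTBP2, a latent TGF-beta binding protein of the matrix, was at 3827, 3836 and 3769 FPKM at 0 d and 1673, 1297 and 1847 FPKM at 3 d (-1.26 ± 0.16). TGFBR3 was the member that rose, and LTBP2 fell together with LTBP3 and LTBP4. FST, the activin antagonist follistatin, was at 24.04, 24.7 and 26.6 FPKM at 0 d and 0.35, 0.30 and 0.40 FPKM at 3 d (-5.81 ± 0.098, limma adjusted p = 7.72e-11). It was among the largest falls of all genes, and INHBA, a subunit of activin, also fell, though it was not called with a pseudocount of 1.

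Of 25 BMP ligands, receptors, antagonists and ID genes, 3 rose and 8 fell (12% and 32.0%, beside 8.06% and 15.2%), and 2 higher and 5 lower were called with a pseudocount of 1. BMP4, a ligand that commits cells to the fat lineage, was at 2.17, 2.19 and 2.6 FPKM at 0 d and 2.9, 2.28 and 2.5 FPKM at 3 d, with overlap and no call. GREM1, a secreted BMP antagonist, was at 30.3, 25.6 and 26.6 FPKM at 0 d and 0.25, 0.27 and 0.25 FPKM at 3 d (-6.27 ± 0.26). BMPER, another extracellular regulator of BMP, was at 0.080, 0.23 and 0.17 FPKM at 0 d and 16.5, 15.7 and 16.9 FPKM at 3 d (6.03 ± 0.19 and 3.90 with a pseudocount of 1). ID1, a target gene of BMP signals, was at 5.96, 5.05 and 6.35 FPKM at 0 d and 23.98, 27.3 and 26.0 FPKM at 3 d (2.14 ± 0.099). GREM1 was nearly silent at 3 d and BMPER at 0 d, and ID1 was higher in each of the 3 d libraries. BMPR2, a receptor, was at 142, 135 and 120.0 FPKM at 0 d and 74.0, 21.2 and 71.2 FPKM at 3 d (-1.45 ± 0.39, limma adjusted p = 0.00949). The second 3 d library was far below the other two, and without it the log2 fold change was -0.86 and the gene was not called, as also in a fit of the 6 libraries of 0 d and 3 d alone.

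FGF ligands, receptors and feedback inhibitors had 4 of 21 higher and 5 lower (19.0% and 23.8%, beside 8.06% and 15.2%), and 2 higher and 3 lower with a pseudocount of 1. FGF2, a growth factor for preadipocytes, was at 177, 28.3 and 597 FPKM at 0 d and 775, 669 and 807 FPKM at 3 d and was not called (2.37 ± 0.94, limma adjusted p = 0.0575). Its 0 d libraries differed from each other more than the days did. Without the second 0 d library the log2 fold change was 1.201, and the gene was called without the third, after rescaling to equal sums and with a replicate block (log2 fold change of 3.40, 2.44 and 2.37). FGF10, a growth factor of the mesenchyme, was at 3.68, 3.65 and 3.48 FPKM at 0 d and 172, 166 and 139 FPKM at 3 d (5.42 ± 0.12, limma adjusted p = 2.94e-10). FGFR4, a receptor, was at 86.6, 93.7 and 104 FPKM at 0 d and 39.3, 41.5 and 38.3 FPKM at 3 d (-1.25 ± 0.17). ETV5, a transcription factor downstream of FGF, was at 0.83, 0.93 and 0.83 FPKM at 0 d and 0.090, 0.080 and 0.10 FPKM at 3 d (-2.34 ± 0.25 and -0.77 with a pseudocount of 1), and was not called with a pseudocount of 1. FGF10 was higher at 3 d, and FGFR4 and ETV5 were higher at 0 d, ETV5 at under 1 FPKM on both days.

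YAP and TAZ are coactivators that respond to tension of the cytoskeleton. Their targets, CCN proteins and some genes of the pathway itself fell in 11 and rose in 1 of 19 cases (57.9% and 5.26%, beside 15.2% and 8.06%). The median log2 fold change was -1.74. CTGF, also called CCN2, was at 2500.4, 2345 and 2463 FPKM at 0 d and 54.4, 55.0 and 59.9 FPKM at 3 d (-5.43 ± 0.059, limma adjusted p = 5.95e-12). CRIM1, a transmembrane protein that binds growth factors, was at 7019, 6964 and 6748 FPKM at 0 d and 1001, 1587 and 1773 FPKM at 3 d (-2.29 ± 0.17). F3, the tissue factor of blood clotting, was at 1.41, 1.05 and 1.45 FPKM at 0 d and 4.86, 5.34 and 5.64 FPKM at 3 d (1.95 ± 0.12). CTGF and CRIM1 were far lower in the 3 d libraries, and F3 was the member that rose. WISP1, NOV, ANKRD1, AMOTL2, AXL and AJUBA fell as well, as did TEAD4 and YAP1 of the pathway itself.

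The fibrillar collagens, which carry the tensile strength of the matrix, had 3 of 9 members lower and 1 higher (33.3% and 11.1%, beside 15.2% and 8.06%). COL1A1 was at 2949.6, 3146 and 2957 FPKM at 0 d and 877, 987 and 958 FPKM at 3 d (-1.68 ± 0.059, limma adjusted p = 6.49e-09). COL1A2, the other chain of collagen I, was at 11124, 10767 and 10509 FPKM at 0 d and 4375, 5103 and 4834 FPKM at 3 d (-1.18 ± 0.072). Both chains of collagen I thus fell, while COL3A1 was not called. COL11A1 was at 193, 184 and 168 FPKM at 0 d and 23.1, 26.4 and 24.4 FPKM at 3 d (-2.88 ± 0.084). COL5A3 was at 8.04, 7.96 and 8.21 FPKM at 0 d and 18.7, 22.5 and 21.3 FPKM at 3 d (1.35 ± 0.20). COL11A1 was high at 0 d and COL5A3 at 3 d. Of 14 collagens of other types, 8 fell and 1 rose (57.1% and 7.14%, beside 15.2% and 8.06%), with a median log2 fold change of -1.66 (-0.68 with no filter and -0.44 with a pseudocount of 1). COL6A1, of the beaded filaments around cells, was at 1145, 1094 and 1167 FPKM at 0 d and 287, 308 and 312 FPKM at 3 d (-1.91 ± 0.053). COL15A1 was at 267, 270.0 and 273 FPKM at 0 d and 18.4, 19.6 and 19.0 FPKM at 3 d (-3.82 ± 0.086). COL18A1, the source of endostatin, was at 33.4, 35.7 and 40.9 FPKM at 0 d and 123, 146 and 146 FPKM at 3 d (1.91 ± 0.095). COL18A1 was the member that rose, and COL6A2, COL6A3 and COL6A5, the last not with a pseudocount of 1, fell with COL6A1.

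In the basement membrane, the thin sheet that surrounds each mature fat cell, 7 of 19 members rose and 4 fell (36.8% and 21.1%, beside 8.06% and 15.2%). COL4A1, a chain of its network collagen, was at 75.9, 75.5 and 77.8 FPKM at 0 d and 295, 315 and 307 FPKM at 3 d (2.0 ± 0.048, limma adjusted p = 5.42e-10). NID2, a nidogen that links laminin to collagen IV, was at 369, 370.3 and 365 FPKM at 0 d and 3225, 3748 and 3608 FPKM at 3 d (3.26 ± 0.059). LAMA1, a laminin alpha chain, was at 1.38, 1.08 and 1.27 FPKM at 0 d and 19.6, 16.8 and 21.4 FPKM at 3 d (3.85 ± 0.25). These 3 were higher in every 3 d library, as were COL4A2, LAMA2 and LAMB1. LAMA3, the laminin alpha chain of epithelial anchors, was at 322, 325 and 300.1 FPKM at 0 d and 3.82, 2.94 and 1.2 FPKM at 3 d (-6.98 ± 0.33, limma adjusted p = 5.76e-08). LAMA5 was at 405, 406 and 396 FPKM at 0 d and 43.0, 51.1 and 49.4 FPKM at 3 d (-3.07 ± 0.062). Of the laminin alpha chains named here, LAMA1 and LAMA2 were thus higher and LAMA3 and LAMA5 lower at 3 d. LAMA4, the most abundant member of the list, is not described here.

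Small leucine-rich proteoglycans, which bind collagen fibrils, had 3 of 12 members higher and 2 lower (25.0% and 16.7%, beside 8.06% and 15.2%), or 3 higher and 1 lower with a pseudocount of 1. Their median log2 fold change was -0.90, and 3 of the 12 members had a positive one. DCN, the proteoglycan decorin, was at 10152, 9343 and 10352 FPKM at 0 d and 41517, 43388 and 42386 FPKM at 3 d (2.09 ± 0.043). FMOD, fibromodulin, was at 1632, 1608 and 1749 FPKM at 0 d and 239, 260.0 and 250.4 FPKM at 3 d (-2.73 ± 0.066, limma adjusted p = 5.42e-10). DCN had the largest gain in FPKM among the named genes, and FMOD fell. Of 26 tenascins, thrombospondins, fibulins and other glycoproteins, 14 fell and 1 rose (53.8% and 3.85%, beside 15.2% and 8.06%), with a median log2 fold change of -1.11 (-0.46 with a pseudocount of 1). TNC, the tenascin of remodelling tissue, was at 3911, 3980.2 and 3980.0 FPKM at 0 d and 54.1, 62.3 and 64.0 FPKM at 3 d (-6.04 ± 0.072, limma adjusted p = 9.2e-12). VCAN, a large proteoglycan whose entry is joined with XRCC4, was at 637, 652 and 592 FPKM at 0 d and 1433, 1334 and 1228 FPKM at 3 d (1.08 ± 0.092). TNC was even in the 0 d libraries and low in all those of 3 d, and the VCAN entry was the member that rose. Without the third 0 d library the calls of the list were 2 higher and 14 lower. POSTN, TNXB, FBLN5, EFEMP1, THBS1 and SPARCL1, the last not with a pseudocount of 1, were among the other members that fell.

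Lysyl oxidases, elastic fibre genes and collagen-modifying enzymes had 8 of 22 members lower and 2 higher (36.4% and 9.09%, beside 15.2% and 8.06%). LOX, which crosslinks collagen and elastin, was at 455, 432 and 422 FPKM at 0 d and 133, 127 and 132 FPKM at 3 d (-1.74 ± 0.054). LOXL4, of the same family, was at 64.1, 63.5 and 66.3 FPKM at 0 d and 0.54, 0.50 and 0.61 FPKM at 3 d (-6.64 ± 0.071, limma adjusted p = 5.95e-12). ELN, the elastin of elastic fibres, was at 8852, 9014 and 9560.2 FPKM at 0 d and 841, 1237 and 1239 FPKM at 3 d (-3.07 ± 0.13). The 3 genes fell in each of the 3 d libraries. P4HA3, a subunit of the enzyme that hydroxylates prolines of collagen, was at 7.8, 7.31 and 7.98 FPKM at 0 d and 161, 183 and 176 FPKM at 3 d (4.48 ± 0.077). It rose, together with the fibril protein MFAP5, while FBN2, MFAP2, MFAP4, PCOLCE and PCOLCE2 fell.

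Among 15 matrix metalloproteinases and their inhibitors, 2 rose and 4 fell (13.3% and 26.7%, beside 8.06% and 15.2%). MMP2, a gelatinase, was at 891, 902 and 942 FPKM at 0 d and 3173, 3677 and 3406 FPKM at 3 d (1.91 ± 0.055). MMP13, a collagenase, was listed at 0 in all 0 d libraries and was at 0.41, 0.74 and 0.50 FPKM at 3 d, and it was not called with a pseudocount of 1. MMP19 was at 364, 341 and 361 FPKM at 0 d and 132, 146 and 133 FPKM at 3 d (-1.38 ± 0.082). MMP2 was the abundant protease that rose. TIMP3, an inhibitor bound to the matrix, was at 138, 105 and 137 FPKM at 0 d and 2.87, 2.48 and 2.41 FPKM at 3 d (-5.55 ± 0.35, limma adjusted p = 4.49e-07). It fell to under 3 FPKM in each of the 3 d libraries. Of 15 ADAMTS proteases, 6 rose and 6 fell (40.0% and 40.0%, beside 8.06% and 15.2%). ADAMTS4, which cuts aggrecan and versican, was at 12.2, 12.03 and 15.8 FPKM at 0 d and 759.8, 934 and 872 FPKM at 3 d (6.00 ± 0.12, limma adjusted p = 1.68e-10). ADAMTS1 was at 27.1, 26.3 and 25.4 FPKM at 0 d and 63.0, 64.1 and 75.3 FPKM at 3 d (1.35 ± 0.096). ADAMTS6 was at 379, 473 and 396 FPKM at 0 d and 105, 86.3 and 86.8 FPKM at 3 d (-2.16 ± 0.12). ADAMTS1 and ADAMTS4, which both cut proteoglycans, were high at 3 d and ADAMTS6 was high at 0 d. ADAMTS16 was at 9.84, 9.82 and 9.58 FPKM at 0 d and 1.52, 1.0 and 1.63 FPKM at 3 d (-2.76 ± 0.17).

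Integrin subunits, the receptors that tie the matrix to actin, fell in 11 and rose in 3 of 21 cases (52.4% and 14.3%, beside 15.2% and 8.06%), with a median log2 fold change of -1.03 (-1.90 with a minimum mean of 1 FPKM). ITGA1, a collagen receptor subunit whose entry is joined with PELO, was at 229.8, 257 and 209.9 FPKM at 0 d and 36.9, 37.0 and 37.9 FPKM at 3 d (-2.63 ± 0.12). ITGA3, a laminin receptor subunit, was at 21.1, 17.7 and 28.9 FPKM at 0 d and 0.36, 0.46 and 0.50 FPKM at 3 d (-5.37 ± 0.20, limma adjusted p = 1.03e-08). Both fell, along with ITGA4, ITGA7, ITGA11, ITGB1, ITGB3, ITGB4, ITGB6 and ITGB8. ITGA8, a subunit of receptors for RGD-containing ligands, was at 2.88, 2.53 and 2.36 FPKM at 0 d and 5.28, 5.52 and 5.51 FPKM at 3 d (1.05 ± 0.077). Its call was lost without the third 0 d library (0.98) and with a pseudocount of 1 (0.84). ITGA10, another subunit of collagen receptors, was at 0.76, 0.74 and 0.47 FPKM at 0 d and 1.7, 1.82 and 1.94 FPKM at 3 d (1.37 ± 0.15 and 0.77 with a pseudocount of 1). The other member that rose was ITGA2B, named after its values were seen, at 2.07, 1.44 and 2.39 FPKM at 0 d and 3.63, 4.77 and 3.7 FPKM at 3 d (1.02 ± 0.20). Its call was lost without the second 0 d library (0.82) or the second 3 d library (0.89), and with a pseudocount of 1 the calls of the list were 0 higher and 11 lower.

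Smooth muscle-type contractile and stress fibre genes fell in 20 of 30 cases (66.7%, against 15.2% called lower among all genes), and the median log2 fold change was -1.44. In the fit of 6 libraries 1 higher and 20 lower were called, MYH11 being the higher. ACTA2, the smooth muscle actin of stress fibres, was at 1642, 1674 and 1776 FPKM at 0 d and 24.6, 28.9 and 26.9 FPKM at 3 d (-5.98 ± 0.068, limma adjusted p = 7.22e-12). FLNA, a filamin that crosslinks actin, was at 8399.8, 8507 and 8773 FPKM at 0 d and 1483, 1739 and 1679 FPKM at 3 d (-2.39 ± 0.062). In both, every 3 d library lay below every 0 d library, and TAGLN, CNN1, CNN2, MYL9, MYLK, LMOD1, ACTN1 and VCL fell too. Of 18 genes of actin, vimentin and tubulin, 10 fell (55.6%, beside 15.2% of all genes). ACTG1, a cytoplasmic actin whose reads can be shared with its close paralog ACTB and whose entry is joined with a microRNA, was at 78844, 75314 and 82882 FPKM at 0 d and 16859, 19073 and 19267 FPKM at 3 d (-2.10 ± 0.056). ACTB was at 1128, 1103 and 1189 FPKM at 0 d and 309, 358 and 348 FPKM at 3 d (-1.75 ± 0.059). VIM, the intermediate filament vimentin, was at 23621, 23499 and 25642 FPKM at 0 d and 9569.9, 10413 and 10076 FPKM at 3 d (-1.27 ± 0.050). Both actins and VIM fell in each of the 3 d libraries, although the split between the actins is uncertain. TUBA4A, a tubulin, was at 3.66, 4.02 and 5.38 FPKM at 0 d and 0.60, 0.96 and 1.07 FPKM at 3 d (-2.20 ± 0.23). The muscle markers given above moved in the same direction as the contractile genes, and their part in this fall was not tested.

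**Figure D3:**
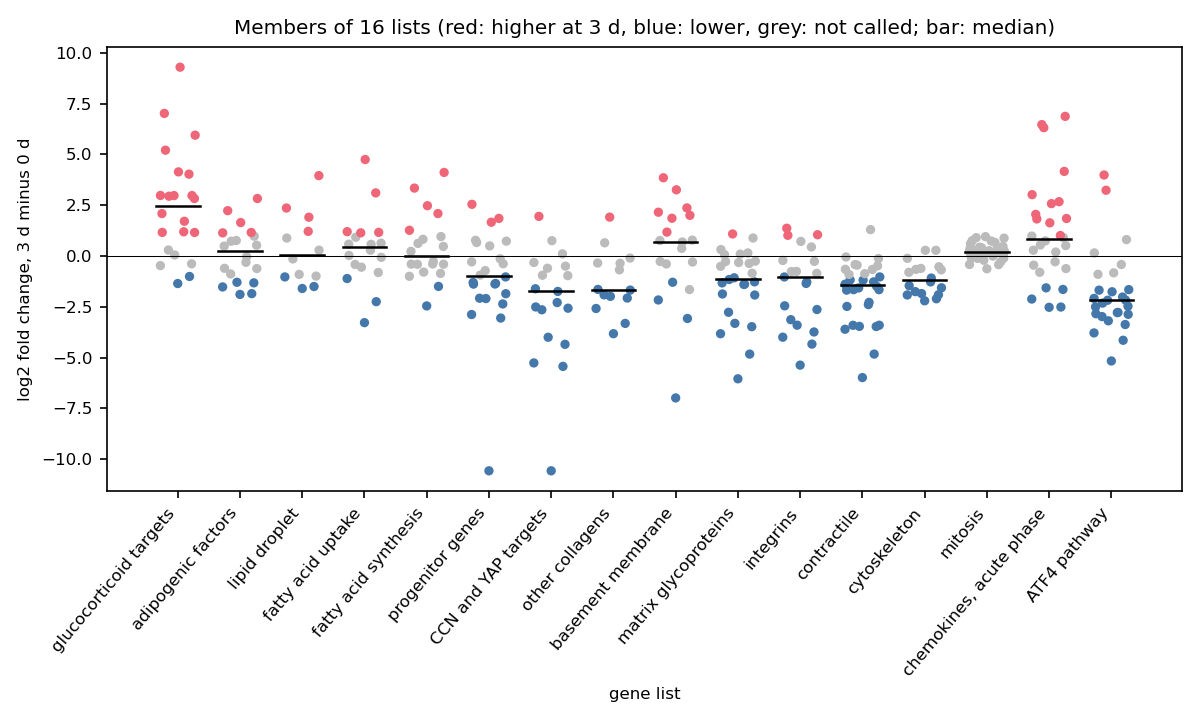
Log2 fold changes of 3 d minus 0 d on the y axis for the tested members of 16 lists on the x axis; each point is a gene, red where called higher at 3 d, blue where called lower and grey where not called, and black bars are the medians. The glucocorticoid list has a median of 2.46 and the ATF4 list -2.18, and the mitotic genes lie within 1 of 0.

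The mitotic genes were not called: limma called 0 of 35, beside 23.3% of all genes, with 16 at an unadjusted p under 0.05 and a median log2 fold change of 0.20. After either rescaling of the libraries 1 was called, and so it was without the third 0 d library or the second 3 d library. MKI67, the proliferation antigen Ki-67, was at 11.7, 12.2 and 11.3 FPKM at 0 d and 14.1, 15.1 and 13.0 FPKM at 3 d. Its 3 d libraries lay just above those of 0 d. Of 35 genes of DNA replication, 5 rose and 0 fell (2 called with a pseudocount of 1). The share called higher was 14.3%, beside 8.06% of all genes, and the median log2 fold change was 0.51. At an unadjusted p under 0.05, limma gave 23 of these genes. PCNA, the sliding clamp of DNA polymerase, was at 5.94, 5.17 and 6.04 FPKM at 0 d and 9.93, 10.2 and 10.4 FPKM at 3 d and was not called (0.82 ± 0.11). POLE, a replicative polymerase, was at 13.1, 11.7 and 14.3 FPKM at 0 d and 27.6, 39.7 and 36.8 FPKM at 3 d (1.39 ± 0.14). E2F1, a transcription factor of S phase genes, was at 22.2, 16.2 and 27.3 FPKM at 0 d and 44.9, 55.7 and 49.6 FPKM at 3 d (1.22 ± 0.19). The 3 d libraries of all 3 were above those of 0 d, and CDC6, CDT1 and CDC45 were the other members called higher, all 3 not with a pseudocount of 1.

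Of 30 cyclins of G1, CDK inhibitors and growth arrest genes, 3 rose and 5 fell (10.0% and 16.7%, beside 8.06% and 15.2%). CCND1, the D-type cyclin that growth factors induce, was at 85.7, 79.2 and 87.5 FPKM at 0 d and 3.94, 4.42 and 3.73 FPKM at 3 d (-4.35 ± 0.073, limma adjusted p = 7.72e-11). MYC, a growth-promoting transcription factor, was at 0.99, 1.33 and 0.83 FPKM at 0 d and 4.84, 2.7 and 2.58 FPKM at 3 d (1.56 ± 0.29). BTG1, an antiproliferative gene, was at 26.9, 45.1 and 24.7 FPKM at 0 d and 64.8, 80.9 and 66.3 FPKM at 3 d (1.18 ± 0.19). CCND1 fell in every 3 d library, while MYC and BTG1 rose. The CDK inhibitors CDKN1C and CDKN2B were both called lower.

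Cytokine receptors of the JAK-STAT pathway and SOCS inhibitors rose in 5 and fell in 4 of 26 cases (19.2% and 15.4%, beside 8.06% and 15.2%), and with a pseudocount of 1 the calls were 4 higher and 2 lower. LIFR, the receptor of leukaemia inhibitory factor, was at 1.17, 1.17 and 0.91 FPKM at 0 d and 5.17, 3.57 and 3.66 FPKM at 3 d (1.83 ± 0.21). SOCS2, a feedback inhibitor of growth hormone signalling, was at 5.37, 5.78 and 5.94 FPKM at 0 d and 25.7, 23.96 and 23.5 FPKM at 3 d (2.08 ± 0.21). CISH, of the same family, was at 24.9, 38.9 and 25.6 FPKM at 0 d and 83.6, 75.0 and 99.4 FPKM at 3 d (1.55 ± 0.17). The growth hormone receptor GHR rose with these 3 genes. SOCS5 was at 115, 106 and 112 FPKM at 0 d and 19.9, 36.3 and 36.9 FPKM at 3 d (-1.89 ± 0.19). In prostaglandin synthesis and reception, 3 of 20 members rose and 7 fell (15.0% and 35.0%, beside 8.06% and 15.2%). PTGS2, the inducible cyclooxygenase, was at 1.74, 1.54 and 1.36 FPKM at 0 d and 1.21, 0.85 and 1.32 FPKM at 3 d and was not called. PTGS1, the other cyclooxygenase, was at 0.27, 0.27 and 0.27 FPKM at 0 d and 16.3, 17.2 and 16.7 FPKM at 3 d (5.51 ± 0.095, limma adjusted p = 7.72e-11). PTGS1 was even and near 0 at 0 d and rose in each of the 3 d libraries. PTGIS, the prostacyclin synthase, was at 83.5, 80.3 and 92.7 FPKM at 0 d and 35.5, 38.3 and 38.3 FPKM at 3 d (-1.19 ± 0.065). TBXA2R, the thromboxane receptor, was at 23.6, 23.9 and 24.7 FPKM at 0 d and 0.89, 1.52 and 1.65 FPKM at 3 d (-4.10 ± 0.18). Both were high at 0 d, and PTGES, PTGDS, PTGER2, PTGER4 and PTGDR fell with them, though PTGER2 and PTGDR were not called with a pseudocount of 1.

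Complement components and regulators had 5 of 15 members higher and 3 lower (33.3% and 20%, beside 8.06% and 15.2%). C7, a component of the membrane attack complex, was at 0, 0.32 and 0.11 FPKM at 0 d and 156, 139 and 152 FPKM at 3 d (9.49 ± 0.42). MASP1, a protease of the lectin pathway, was at 106, 106 and 119 FPKM at 0 d and 681, 842 and 796 FPKM at 3 d (2.81 ± 0.091). C3, the central component, was at 0.10, 0.17 and 0.14 FPKM at 0 d and 0.54, 0.50 and 0.47 FPKM at 3 d (1.36 ± 0.14 and 0.40 with a pseudocount of 1) and was not called with a pseudocount of 1. C7 and MASP1 were high in the 3 d libraries, and C3 stayed under 1 FPKM. CD55, which dissolves complement convertases, was at 7.51, 10.3 and 10.6 FPKM at 0 d and 2.95, 3.67 and 3.21 FPKM at 3 d (-1.49 ± 0.15). Among 28 chemokines, cytokines and acute-phase genes, 12 rose and 5 fell (42.9% and 17.9%, beside 8.06% and 15.2%), with a median log2 fold change of 0.82 (0.46 with a pseudocount of 1 and 1.63 with a minimum mean of 1 FPKM). The calls were 9 higher and 2 lower with a pseudocount of 1, or 9 higher and 1 lower with a minimum mean of 1 FPKM. CXCL12, the chemokine of stromal cells, was at 10.5, 9.97 and 9.88 FPKM at 0 d and 882, 923 and 898 FPKM at 3 d (6.46 ± 0.058, limma adjusted p = 2.81e-12). PTX3, the long pentraxin of innate defence, was at 9.4, 11.1 and 11.5 FPKM at 0 d and 1254, 1269.8 and 1240.3 FPKM at 3 d (6.87 ± 0.10). CXCL14, another chemokine, was at 0, 0 and 0.070 FPKM at 0 d and 7.76, 9.66 and 11.0 FPKM at 3 d (6.31 ± 0.34 and 3.35 with a pseudocount of 1). All 3 were low at 0 d and rose in each of the 3 d libraries, as did the NF-kappa-B inhibitors NFKBIA and TNFAIP3.

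CXCL8, a chemokine for neutrophils and the first gene of that list, was at 3.06, 2.34 and 2.77 FPKM at 0 d and 5.33, 5.65 and 5.34 FPKM at 3 d and was not called (0.98 ± 0.14). It was called with a pseudocount of 0.01 (1.00), after either rescaling (1.06 and 1.04) and without the first 0 d library (1.06). CXCL2, a chemokine of the same kind, was at 1.55, 1.4 and 1.41 FPKM at 0 d and 0.17, 0.16 and 0.18 FPKM at 3 d (-2.52 ± 0.13 and -1.07 with a pseudocount of 1). LIF, a cytokine of the interleukin 6 family, was at 9.87, 6.29 and 8.42 FPKM at 0 d and 1.82, 1.78 and 1.74 FPKM at 3 d (-2.12 ± 0.18). CXCL2 and LIF were lower in every 3 d library. Interferon-stimulated genes fell in 7 and rose in 1 of 21 cases (33.3% and 4.76%, beside 15.2% and 8.06%), and 0 higher and 2 lower were called with a pseudocount of 1, or 0 higher and 3 lower with a minimum mean of 1 FPKM. IFIT3, whose entry is joined with unnamed loci, was at 42.5, 28.5 and 30.7 FPKM at 0 d and 2.42, 1.64 and 1.95 FPKM at 3 d (-4.01 ± 0.22). IFI27, the member called higher, was at 0.62, 0.52 and 0.50 FPKM at 0 d and 1.59, 1.89 and 1.48 FPKM at 3 d (1.44 ± 0.31 and 0.78 with a pseudocount of 1) and was not called with a pseudocount of 1. The IFIT3 entry was high in the 0 d libraries, and IFI44L, IRF7, IFIH1 and TAP1 fell as well, of which TAP1 alone was called with a pseudocount of 1.

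Glucose transporters and glycolytic enzymes had 6 of 30 members higher and 3 lower (20% and 10.0%, beside 8.06% and 15.2%), or 6 higher and 0 lower with a pseudocount of 1. SLC2A1, the glucose transporter GLUT1, was at 1.34, 1.28 and 1.47 FPKM at 0 d and 4.33, 4.75 and 5.4 FPKM at 3 d (1.75 ± 0.11). PFKFB3, which makes the activator of phosphofructokinase, was at 14.6, 7.6 and 14.4 FPKM at 0 d and 178, 174 and 190.4 FPKM at 3 d (3.94 ± 0.21, limma adjusted p = 1.5e-07). ENO1, the enolase of most tissues, was at 13044, 12936 and 14398 FPKM at 0 d and 26003, 28899.7 and 28216 FPKM at 3 d (1.04 ± 0.055). All 3 rose in each of the 3 d libraries, ENO1 just past the threshold of the call. ENO3, the enolase of muscle, was at 1.03, 1.25 and 1.39 FPKM at 0 d and 0.23, 0.37 and 0.35 FPKM at 3 d (-1.68 ± 0.18 and -0.75 with a pseudocount of 1) and was not called with a pseudocount of 1. GAPDH, often used as a reference, was at 9392, 9217 and 10035 FPKM at 0 d and 17372, 18894 and 18944 FPKM at 3 d and was not called (0.95 ± 0.054), but was called after either rescaling (1.03 and 1.02). Its 3 d libraries all lay above those of 0 d. SLC2A10, the transporter GLUT10, was at 24.5, 25.3 and 27.0 FPKM at 0 d and 11.9, 13.2 and 12.5 FPKM at 3 d (-1.02 ± 0.075). Its call was lost with a pseudocount of 1 (-0.97), after either rescaling (-0.94 and -0.95), without the third 0 d library (-0.98) and without the first 3 d library (-0.98).

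Of 27 genes of cholesterol synthesis and transport, 5 rose (18.5%, beside 8.06% of all genes) and 1 fell (3.7%, beside 15.2%). ABCA1, the pump that exports cholesterol, was at 267, 354 and 273 FPKM at 0 d and 3377, 2734 and 2699.8 FPKM at 3 d (3.30 ± 0.13, limma adjusted p = 1.59e-08). TM7SF2, a sterol reductase, was at 35.5, 36.0 and 40.5 FPKM at 0 d and 4.3, 6.66 and 3.54 FPKM at 3 d (-2.97 ± 0.21). ABCA1 was high in the 3 d libraries, and TM7SF2 was the member that fell.

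The amino acid response of the ATF4 pathway, which supplies amino acids and charged transfer RNAs under stress, fell in 20 and rose in 2 of 27 cases (74.1% and 7.41%, beside 15.2% and 8.06%), and its median log2 fold change was -2.18. ATF4, the transcription factor itself, was at 157, 160.1 and 167 FPKM at 0 d and 43.0, 50.7 and 49.6 FPKM at 3 d (-1.76 ± 0.083, limma adjusted p = 5.9e-08). TRIB3, a pseudokinase target of ATF4, was at 57.9, 60.4 and 64.0 FPKM at 0 d and 1.36, 1.6 and 1.87 FPKM at 3 d (-5.16 ± 0.16). AARS, the alanyl-tRNA synthetase, was at 706, 709.8 and 747 FPKM at 0 d and 159, 181 and 170.1 FPKM at 3 d (-2.08 ± 0.082). The 3 genes fell in each of the 3 d libraries, along with the serine synthesis enzymes PHGDH, PSAT1 and PSPH, the transporters SLC7A11, SLC7A5 and SLC7A1 and the synthetases CARS, GARS and WARS. DDIT4, an inhibitor of mTORC1 that glucocorticoids also induce, was at 109, 109 and 123 FPKM at 0 d and 1042, 1066 and 1097 FPKM at 3 d (3.23 ± 0.074). NUPR1, a stress protein, was at 7.96, 7.73 and 8.04 FPKM at 0 d and 131, 136 and 114 FPKM at 3 d (3.98 ± 0.21). These were the members that rose, and their 3 d libraries lay above all those of 0 d.

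**Figure D4:**
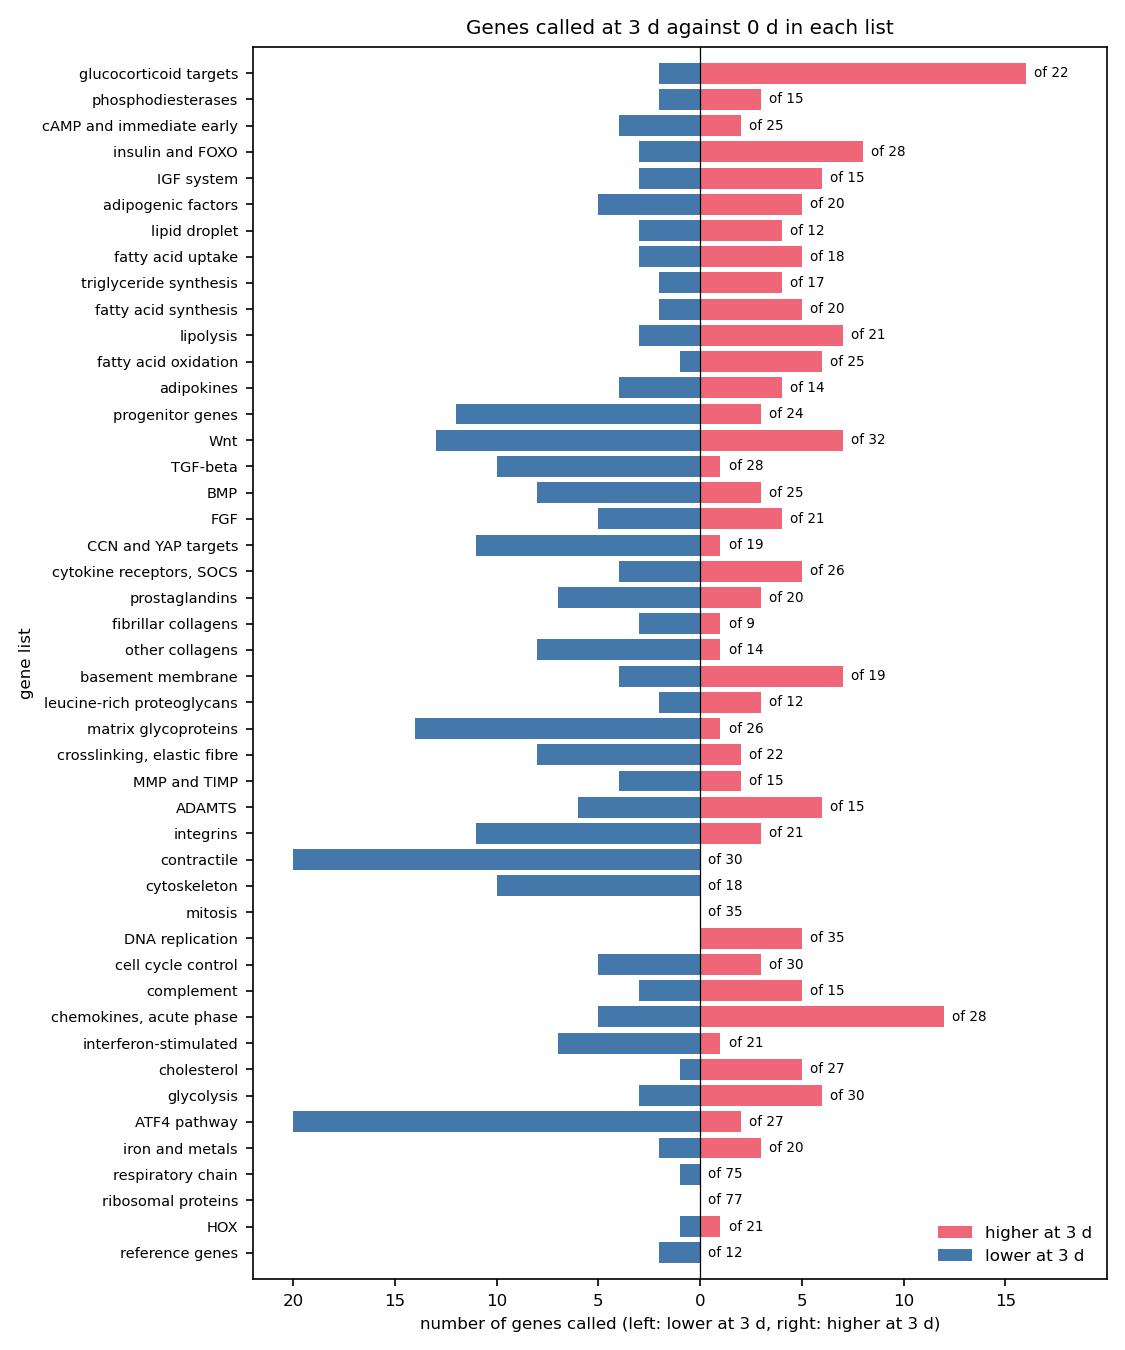
Number of genes called higher at 3 d (red, to the right) and lower at 3 d (blue, to the left) in each of 46 gene lists on the y axis, with the number tested beside each bar. The glucocorticoid list has 16 genes called higher of 22, and the contractile list 20 called lower of 30.

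Levels at 6 d and 9 d are given for some of these genes as means ± SD of 3 libraries, as a description with no test. PDK4 was at 62.9 ± 1.61 FPKM at 3 d, 1.97 ± 0.254 FPKM at 6 d and 0.733 ± 0.102 FPKM at 9 d. MAOA was at 4216 ± 129 FPKM at 3 d, 1493 ± 15.4 FPKM at 6 d and 750.1 ± 14.5 FPKM at 9 d. PDGFRA was at 929.5 ± 31.5 FPKM at 3 d, 162 ± 1.79 FPKM at 6 d and 203 ± 6.12 FPKM at 9 d. The means of these genes were highest at 3 d, and for PDK4 and PDGFRA those of 6 d and 9 d were nearer to the mean of 0 d than to that of 3 d. PTX3 was at 1255 ± 14.8 FPKM at 3 d, 1301 ± 73.8 FPKM at 6 d and 109.8 ± 14.5 FPKM at 9 d. DCN was at 42430.4 ± 936 FPKM at 3 d, 31464 ± 850.2 FPKM at 6 d and 44464 ± 609 FPKM at 9 d. PTX3 was high through 6 d, and the mean of DCN was above that of 0 d on each later day. TNC was at 60.1 ± 5.30 FPKM at 3 d, 5473 ± 297 FPKM at 6 d and 4856 ± 305 FPKM at 9 d. ACTA2 was at 26.8 ± 2.17 FPKM at 3 d, 1583 ± 69.3 FPKM at 6 d and 598 ± 30.2 FPKM at 9 d. CTGF was at 56.4 ± 3.03 FPKM at 3 d, 1682 ± 94.5 FPKM at 6 d and 1907 ± 82.1 FPKM at 9 d. In these 3 genes the mean was lowest at 3 d among the 4 days. CPT1A, which was not called at 3 d, was at 1385 ± 46.7 FPKM at 3 d, 266 ± 34.2 FPKM at 6 d and 347 ± 102 FPKM at 9 d.

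**Figure D5:**
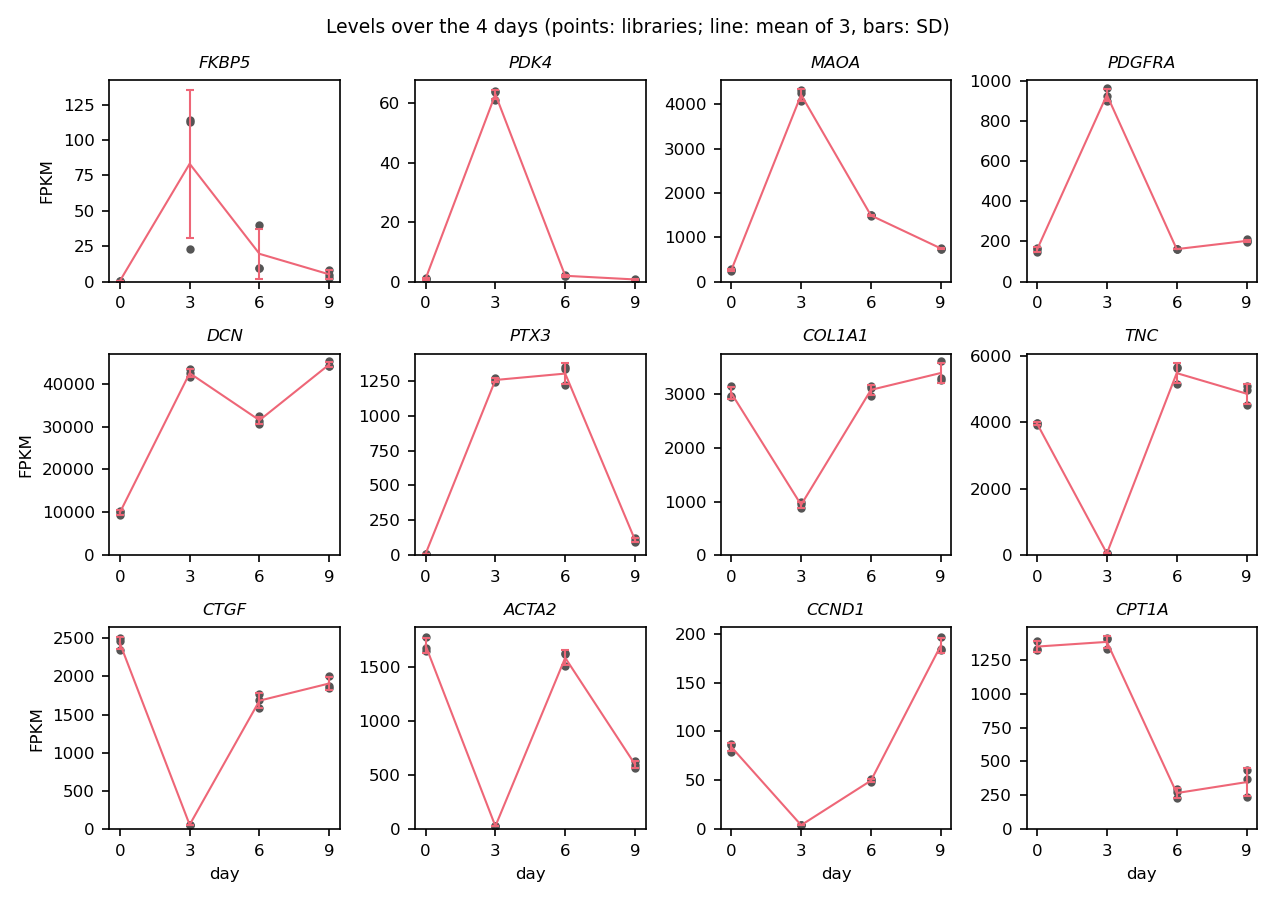
FPKM on the y axes against the day on the x axes for 12 named genes; points are libraries, and the red line joins the means of 3 libraries with bars of 1 SD. PDK4, MAOA and PDGFRA have their highest mean at 3 d, and TNC, CTGF, ACTA2, CCND1 and COL1A1 their lowest.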

How the data were processed

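Poly(A) or rRNA-depleted RNA (the sources differ) of 0, 3, 6 and 9 d was sequenced with 3 libraries for each day. The study's methods state mapping to the bovine genome (ARS-UCD1.2), while the submitters' processing notes list the mouse build mm8, so the sources differ on the genome behind the deposited mRNA values, which are FPKM. The processing notes name Bowtie 0.12.2, HISAT2 2.0 and StringTie 1.3.0. All 12 columns were assigned by day and replicate in their names, and 0 were left unused. The study states a test that needs counts, and only FPKM are used here, so limma 3.58.1 (lmFit, contrasts.fit, eBayes with trend) was fitted to log2(FPKM + 0.1) of all 12 libraries, and p-values were adjusted by Benjamini-Hochberg over the 15402 entries tested. The same fit gives contrasts of 6 d and 9 d, which are not reported, and the tables of other RNA classes were not used. Named are, in each of 46 gene lists and 10 cell type marker lists, the first member and up to 4 called members (largest rise and fall and the most abundant in each direction). Over all genes, the 15 largest rises and falls and the 10 largest gains and losses in FPKM are named, with a mean of at least 1 FPKM on a day. By this rule, all but the first members were named only without overlap between days. Fewer are named where the text would repeat itself, other called members are given by name alone unless a rescaling or leaving out 1 library ends the call, and MYOD1, COL3A1, MYH11, TEK, CEBPB and ITGA2B were chosen after their values were seen. Some genes that the rule picks are not described. These are KIAA0040, MEGF6, FAM180A and ARSI of the largest falls, NUDT4 and TMEM165 of the largest gains, and some first members of lists. Members and lists were chosen with earlier results of these data known, and 3 members taken out of the lists later, after the data were seen, were not analysed here. Where a symbol has several entries, the one with the highest mean was used. Of the names tested, 13503 match symbols and 219 synonyms of RefSeq (ARS-UCD2.0). The alternatives were other pseudocounts, filters and scalings, a fit of 6 libraries, a replicate block, robust estimation and leaving out each library. The fit was tested on simulated data. Tools were R 4.3.3, Python 3.11.15, NumPy 2.4.6, pandas 2.3.3 and Matplotlib 3.10.9.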

Additional observations from a re-analysis of the deposited data

How the results depend on the processing

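The genes called at 3 d numbered 3585 (1241 higher, 2344 lower). With a pseudocount of 1 they numbered 2184 (738 and 1446), since this pseudocount shrinks the changes of low genes. The other settings stayed within 1.5 times of the first counts: 3892 with a pseudocount of 0.01, 3748 with no filter, 2563 with a mean of at least 1 FPKM, 3518 and 3457 after rescaling by the median ratio or to equal sums, 3501 in a fit of 6 libraries and 3574 with robust estimation. Rescaling moved the median of all genes by 0.07 and 0.07. Leaving out 1 library gave 3485 to 3660 calls (1191 to 1349 higher, 2294 to 2344 lower). No pairing of the libraries by replicate number was seen. Deviations of same-numbered libraries of 0 d and 3 d correlated at -0.00540, -0.0981 and 0.0981 across genes (0.00560, -0.0868 and 0.0837 with a pseudocount of 1). For different numbers the values ran from -0.19 to 0.18. With so few libraries, whether same-numbered cultures shared an animal cannot be told from these values. A replicate block gave 3591 calls (1248 and 2343). Of all 3585 genes called, 2163 were also called with a pseudocount of 1, and 3288 to 3354 without 1 library. Of the 193 genes given with values, 172 were called, and 155 of these in every setting that tested them. These genes were mostly picked for size or abundance and for lack of overlap, so they do not stand for all called genes. The call was lost with a pseudocount of 1 in 15 and without 1 library in 7, and 8 others gained a call. Of 105 called genes given by name alone, 24 lost the call with a pseudocount of 1, and those that lose it with a rescaling or without 1 library are not named. With a mean of at least 1 FPKM, 16 of the genes with values were not tested. Among these genes the sign turned for RPL3, which was not called: -0.03 became 0.051 and 0.040 with the rescalings and -0.079 to 0.039 without 1 library. Of the 55 lists, 41 had a median that moved by over 1.5 times or turned in at least 1 setting (19 with a pseudocount of 1, 19 with no filter, 19 with a mean of at least 1 FPKM), and in 14 it changed sign. The planned count of promoter motifs was not run. The causes of these differences were not tested beyond the effect of the pseudocount. Depth limits the low genes in a way that FPKM do not show.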

Other observations

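Some of the largest changes lay outside the gene lists. SLC7A8, a transporter of neutral amino acids, was at 0.53, 0.46 and 0.090 FPKM at 0 d and 171, 192 and 186 FPKM at 3 d (8.82 ± 0.38, limma adjusted p = 2.91e-08). ENPP1, an enzyme of the cell surface that releases pyrophosphate, was at 2.86, 2.41 and 2.73 FPKM at 0 d and 302, 307 and 274 FPKM at 3 d (6.74 ± 0.19). Both genes were low in the 0 d libraries and high in those of 3 d. TRARG1, a regulator of glucose transporter trafficking in fat cells, was listed at 0 in all 0 d libraries and was at 17.9, 22.1 and 17.9 FPKM at 3 d. TMEM100, a transmembrane protein, was at 2.23, 1.86 and 4.14 FPKM at 0 d and 342, 125 and 144 FPKM at 3 d (6.09 ± 0.44). Its first 3 d library was above the others of that day. TNFSF18, a ligand of the tumour necrosis factor family, was at 3855, 3881 and 781 FPKM at 0 d and 43.1, 49.4 and 31.0 FPKM at 3 d (-5.81 ± 0.51, limma adjusted p = 5.83e-06). EMP3, a membrane protein, was at 109, 109.7 and 119 FPKM at 0 d and 1.08, 0.87 and 0.77 FPKM at 3 d (-6.82 ± 0.12). These fell in every 3 d library, although the third 0 d library of TNFSF18 was well below the other two.

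KCNMB1, a subunit of a potassium channel of smooth muscle, was at 7.56, 7.74 and 8.62 FPKM at 0 d and 0, 0 and 0.10 FPKM at 3 d (-6.00 ± 0.31 and -3.12 with a pseudocount of 1). It fell, and the days did not overlap. Among genes with high levels, GSN, an actin-severing protein, was at 7273, 7204 and 7962 FPKM at 0 d and 14061, 16723 and 15499.8 FPKM at 3 d (1.04 ± 0.071). Its call was lost without the second 3 d library (0.98). SCP2, a sterol carrier whose entry is joined with an unnamed locus, was at 1013, 858 and 832 FPKM at 0 d and 3654, 3683 and 3880.5 FPKM at 3 d (2.06 ± 0.094). Both GSN and SCP2 rose. FAT1, a giant cadherin, was at 9277, 10355 and 7809.6 FPKM at 0 d and 3812, 3702 and 3353 FPKM at 3 d (-1.33 ± 0.10). APP, the amyloid precursor protein, was at 6688, 6468 and 6554 FPKM at 0 d and 2453, 2665 and 2662 FPKM at 3 d (-1.34 ± 0.042). CD63, a tetraspanin of late endosomes, was at 5769, 5272 and 6466 FPKM at 0 d and 2311, 2363 and 2332 FPKM at 3 d (-1.32 ± 0.070). The last 3 fell to less than the lowest 0 d library in each 3 d library.

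Of 20 genes of iron, haem and metal handling, 3 rose and 2 fell (15.0% and 10.0%, beside 8.06% and 15.2%), or 2 higher and 1 lower with a pseudocount of 1. TF, the iron carrier transferrin, was at 0, 0 and 0.15 FPKM at 0 d and 24.3, 27.1 and 27.6 FPKM at 3 d (7.60 ± 0.30 and 4.70 with a pseudocount of 1). ALAS1, the first enzyme of haem synthesis, was at 64.5, 58.7 and 71.0 FPKM at 0 d and 27.1, 31.9 and 29.9 FPKM at 3 d (-1.12 ± 0.088). TF was listed at 0 in 2 of the 0 d libraries, and ALAS1 fell. For the 75 nuclear-coded subunits of the respiratory chain the median log2 fold change was -0.25, and 22 had a positive one. At an unadjusted p under 0.05, limma gave 43 of them. Of the 75, 1 was called, beside 23.3% of all genes, NDUFA13, a subunit of complex I. It was at 5.48, 5.99 and 7.1 FPKM at 0 d and 3.16, 2.42 and 2.12 FPKM at 3 d (-1.25 ± 0.21). Leaving out any of the 0 d libraries or the second 3 d library gave 2 calls. NDUFA1 was at 0.43, 0.59 and 0.54 FPKM at 0 d and 0.32, 0.52 and 0.49 FPKM at 3 d and was not called. The 77 ribosomal protein genes had a median log2 fold change of 0.01 (-0.037 without the second 0 d library and 0.089 after rescaling by the median ratio), and limma called 0 of them, beside 23.3% of all genes, with 26 at an unadjusted p under 0.05. RPL3, a protein of the large subunit, was at 142, 137 and 161 FPKM at 0 d and 139, 149 and 142 FPKM at 3 d, with overlap. Of 21 HOX genes, which keep a cell's position along the body axis, 1 rose and 1 fell (4.76% and 4.76%, beside 8.06% and 15.2%), and 2 higher and 0 lower were called after rescaling by the median ratio. HOXB6 was at 21.9, 23.2 and 23.4 FPKM at 0 d and 48.5, 47.7 and 44.2 FPKM at 3 d (1.03 ± 0.063). HOXC4 was at 1.58, 1.71 and 1.54 FPKM at 0 d and 0.39, 0.89 and 1.12 FPKM at 3 d (-1.02 ± 0.29 and -0.56 with a pseudocount of 1). The HOXC4 call was lost with a pseudocount of 1, after either rescaling (-0.94 and -0.94), in the fit of 6 libraries, without the second 0 d library (-0.98) and without the first 3 d library (-0.64). Among 12 genes often used as references, 2 were called (16.7% lower, beside 15.2% of all genes), ACTB and YWHAZ, both lower at 3 d, and after either rescaling or without the third 3 d library the calls were 1 higher and 2 lower. The depth behind each value is unknown, entries that join several genes cannot be split, and no value above separates a change within cells from a change in the mixture of cells.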
